A study of Mus musculus with 4 samples.

Results

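Immediate early genes are transcribed within minutes of a growth factor, stress or mechanical stimulus, from factors already present in the cell. Several of them encode AP-1, a family of leucine zipper dimers in which a Fos protein pairs with a Jun protein, or Jun proteins pair with each other, to bind DNA. In skin, these genes are known to respond to growth factor signals, wounding and the enzymatic dissociation of tissue. The 10 genes described here were taken by symbol. They are Fos, Fosb and Fosl2 (Fos family), Jun, Junb and Jund (Jun family), Egr1 (a zinc finger factor), Atf3 (a stress-induced zipper factor that dimerises with Jun proteins), Ier2 (a nuclear early-response protein) and Dusp1 (a phosphatase that inactivates MAP kinases). All 10 had an entry in every library, out of 20378 protein-coding gene units with an accepted status.

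Messenger RNA was measured in dermal cells of mouse embryos carrying LacZ at Axin2, a feedback gene of canonical Wnt signalling, so that all 4 groups share the Axin2-LacZ allele. The groups were Axin2-positive and Axin2-negative cells of ventral foot skin at E17.5, and Axin2-positive and Axin2-negative cells of dorsal back skin at E14.5, with 1 library each. Skin was digested with collagenase (1000 U/ml) and hyaluronidase (300 U/ml) before cell sorting. For all 4 groups 4% FBS (fetal bovine serum) is listed as well. The sources used here do not give the strain and sex, or whether embryos were pooled.

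With 1 library a group no difference has a replicate check, and no p-value or standard error is given. Values are FPKM (fragments per kilobase of transcript, relative to the fragments mapped in that library), followed by the authors' lower and upper bounds, which cover counting and read assignment within a library only. The 4 comparisons share libraries, so they are not independent of each other. Foot and back differ in site and in stage, and these cannot be told apart. In sorted bulk cells, fewer cells of a type and less RNA per cell cannot be told apart either.

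A log2 ratio is that of scaled FPKM + 1, and the figure after ± combines the bounds of both values. A gene is called at least 2-fold higher or lower where the size of this ratio is 1 or more and the larger FPKM is 5 or more. A gene listed at 0 is named as such, and no fold is given for it.

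The label could be checked against Axin2 (mm9, chr11:108781663-108812098). Axin2 stood at 9.65 FPKM (7.10 to 12.5) in the foot library labelled Axin2-positive and 12.9 FPKM (10.2 to 15.3) in that labelled Axin2-negative. In the back it was 4.49 FPKM (3.89 to 5.09) in the Axin2-positive and 3.13 FPKM (2.63 to 3.64) in the Axin2-negative library. After scaling the log2 ratios were -0.19 ± 0.45 in the foot and 0.23 ± 0.25 in the back, and the scaled bounds overlapped in both skins; as deposited, those of the back did not. After scaling, Axin2 therefore did not separate the positive from the negative library in either skin. In what follows, positive and negative are the names on the labels, in the back as in the foot.

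The median half-width of the bounds, over coding genes of at least 5 FPKM, was 23.2% and 14.1% of the value in the foot libraries labelled Axin2-positive and Axin2-negative, against 8.998% and 9.93% in the back positive and negative libraries. All 10 dermal fibroblast markers were at 1 FPKM or more in every library, with sums of 7908 and 7610 FPKM in the positive and negative foot libraries and 5003 and 3697 FPKM in those of the back. Single markers were called: in the sort, Col1a2 was higher (1.91 ± 0.04) and Col1a1 lower (-1.23 ± 0.06) in the foot, and Pdgfra was higher in the back (1.22 ± 0.10). In the foot against the back, 2 were higher and 1 lower of 10 between positive libraries, and 3 higher (Dpt, Col3a1 and Pdgfra) and 1 lower (Twist2) between negative ones. Of all tested genes, 17% were higher and 13.9% lower between positive libraries, and 16.9% and 11.2% between negative ones. In the sorts, 10.6% were higher and 11.2% lower in the foot, and 4.08% and 3.59% in the back. The part of the fibroblast markers in the values of the early genes was not tested. Zeros touch 3 of the 10 genes: Junb, Jund and Atf3 were listed at 0 in the foot library labelled positive. There, 133 of 7193 coding genes (1.85%) that had at least 3 FPKM in the foot library labelled negative were also listed at 0, as were 62 of the 5065 (1.22%) that had at least 5 FPKM in the back positive library. Of 11 general expression genes, 1 was called lower in the foot sort (Tbp, a basal transcription factor, at -1.43 ± 0.77) and 1 in the back sort (Actb, a cytoskeletal actin, at -2.63 ± 0.05). Of all tested genes 11.2% and 3.59% were called lower in these sorts. In the foot against the back, 2 of the 11 were higher and 2 lower between positive libraries, and 1 higher and 1 lower between negative ones. Their medians were -0.34 and -0.19, against 0.10 and 0.14 over all tested genes, and 7 of 11 lay below 0 in each pair. Actb was at 574 and 856 FPKM in the positive and negative foot libraries and at 202 and 1062 FPKM in those of the back.

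The promoters of several early genes are known to hold cAMP response elements, which bind factors of the CREB and ATF families. RefSeq (GRCm38.p6) gave a promoter for 8 of the 10 genes, the others being Egr1 and Ier2. The letters TGACG, the shared core of these elements, were searched on both strands from 250 bases before to 50 bases after each annotated start. They occurred in 5 of the 8, namely Atf3, Dusp1, Fos, Fosb and Junb, against 23.0% of 27025 genes with a promoter in the same table. The 250 bases upstream of 4 of these are shown, for the 3 genes called lower in the back positive library (Fos, Junb and Atf3) and for Dusp1, which holds the full element and was not called there, with TGACG, or CGTCA where it lies on the other strand, in capitals; in Dusp1 the full TGACGTCA is in capitals where it occurs. They lie at chr12:85473640-85473889 on the plus strand for Fos, and chr8:84978749-84978998, chr1:191183334-191183583 and chr17:26508473-26508722 on the minus strand for Junb, Atf3 and Dusp1.
Fos: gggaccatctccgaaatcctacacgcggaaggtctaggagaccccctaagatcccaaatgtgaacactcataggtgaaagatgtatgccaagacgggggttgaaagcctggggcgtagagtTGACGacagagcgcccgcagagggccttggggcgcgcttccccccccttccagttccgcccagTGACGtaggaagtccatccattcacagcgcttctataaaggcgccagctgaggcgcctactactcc
Junb: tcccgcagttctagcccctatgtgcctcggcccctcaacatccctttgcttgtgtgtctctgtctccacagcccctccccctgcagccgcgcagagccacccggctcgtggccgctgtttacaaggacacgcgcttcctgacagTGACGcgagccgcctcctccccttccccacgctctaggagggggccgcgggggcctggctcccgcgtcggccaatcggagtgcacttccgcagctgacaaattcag
Atf3: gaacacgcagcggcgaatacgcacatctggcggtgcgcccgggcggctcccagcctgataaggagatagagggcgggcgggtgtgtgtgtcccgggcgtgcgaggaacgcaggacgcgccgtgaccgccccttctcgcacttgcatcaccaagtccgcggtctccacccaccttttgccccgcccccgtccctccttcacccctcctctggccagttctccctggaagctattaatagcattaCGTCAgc
Dusp1: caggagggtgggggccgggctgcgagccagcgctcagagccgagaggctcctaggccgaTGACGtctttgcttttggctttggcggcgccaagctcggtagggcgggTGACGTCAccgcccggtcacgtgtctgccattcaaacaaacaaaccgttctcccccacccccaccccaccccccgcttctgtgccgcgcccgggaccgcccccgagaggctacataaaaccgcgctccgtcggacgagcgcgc
In Fos the 2 matches began 129 and 66 bases upstream of the start, with the letters TATAAA 33 bases upstream. The match began 106 bases upstream in Junb and 7 in Atf3. Dusp1 held 3 matches, at 191, 143 and 140 bases, of which those at 143 and 140 overlap in 1 full TGACGTCA; that full element was in 2.03% of all genes and in none of the other 7 windows searched. The AP-1 site TGANTCA was in none of the 8 windows, against 8.97% of genes, and the CArG box of serum response factor was in none, against 1.81%. With 8 windows and shares this low, finding none does not set these genes apart from others. Sites outside the windows, or at Egr1 and Ier2, were not searched. The variant TGACATCA, searched because it is known from the Jun promoter, was found there 45 bases upstream and in 4.18% of genes. A match is a description of letters and not of binding.

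By annotation, 4 of the 10 genes, Ier2, Jun, Junb and Jund, had 1 exon in their principal coding transcript, against 7.10% of 21877 coding genes, whose median was 7 exons. Transcript length was not uniformly short, from 1522 bases (Ier2) to 6537 bases (Fosl2), against a median of 2566 bases over those coding genes.

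The 10 genes together summed to 47.4 FPKM in the foot library labelled positive and 117 FPKM in that labelled negative, and to 174 FPKM in the back positive and 320 FPKM in the back negative library. After scaling the sums were 43.5, 92.9, 186 and 405. Fos led in 3 libraries and Ier2 in the foot library labelled positive, where its bounds overlapped those of the next gene, Dusp1. Fosb was the lowest gene not listed at 0 in all 4.

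**Figure D1:**
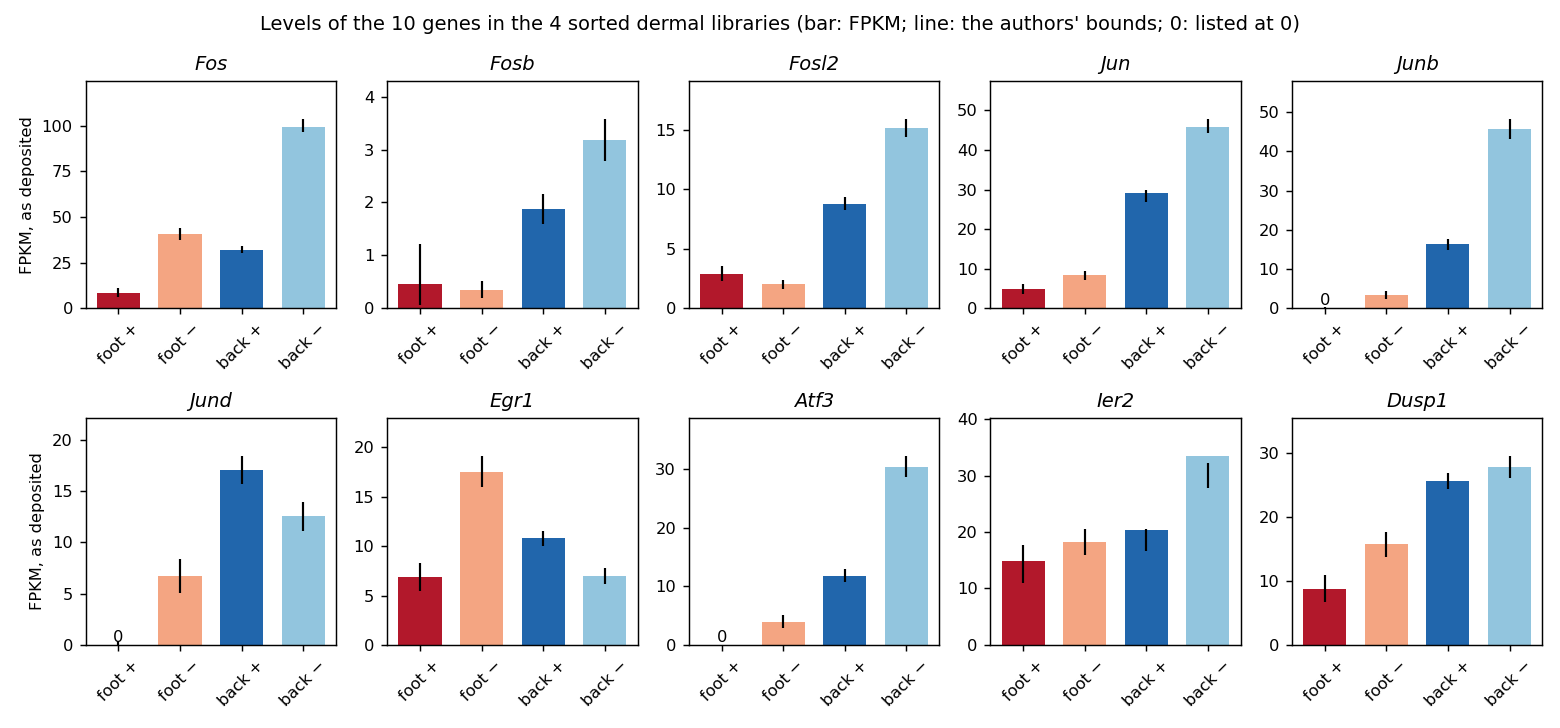
FPKM as deposited (vertical axis, from 0, scaled separately for each gene) of the 10 genes in the foot Axin2-positive (foot +), foot Axin2-negative (foot −), back Axin2-positive (back +) and back Axin2-negative (back −) libraries; black lines are the authors' bounds and a printed 0 marks a gene listed at 0. The back negative library is the highest for 8 genes; Jund is highest in the back positive library (17.1 FPKM) and Egr1 in the foot negative library (17.55 FPKM).

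Fos (mm9, chr12:86814840-86818223), the classic serum-induced AP-1 subunit, had 8.59 FPKM (5.89 to 11.3) in the foot library labelled positive and 40.5 FPKM (37.3 to 43.9) in that labelled negative. In the back it had 32.0 FPKM (30.2 to 34.2) in the positive and 99.3 FPKM (96.4 to 104) in the negative library. None of the 4 pairs of bounds overlapped within a skin or within a label. Fos was lower in the positive library by nearly the same log2 ratio in both skins, -1.90 ± 0.43 in the foot and -1.85 ± 0.10 in the back, and the foot minus back difference was -0.06 ± 0.44 (-0.51 as deposited, without scaling). It was also lower in the foot than in the back, at -1.99 ± 0.42 between positive and -1.93 ± 0.13 between negative libraries. Fos was the only member called lower in all 4 comparisons.

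Fosb (chr7:19888070-19895394), a Fos paralogue, stayed below the 5 FPKM limit everywhere and was never called. It had 0.462 FPKM (0.0547 to 1.21) in the foot library labelled positive and 0.342 FPKM (0.185 to 0.508) in that labelled negative. It had 1.87 FPKM (1.60 to 2.16) in the back positive and 3.18 FPKM (2.78 to 3.58) in the back negative library. The foot libraries overlapped, while the back libraries did not and lay above them.

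Fosl2 (chr5:32438845-32460204), which encodes the subunit Fra-2, had 2.90 FPKM (2.28 to 3.54) in the foot library labelled positive and 2.01 FPKM (1.66 to 2.35) in that labelled negative. It had 8.77 FPKM (8.24 to 9.31) in the back positive and 15.1 FPKM (14.3 to 15.9) in the back negative library. The 2 skins ran in opposite directions, 0.50 ± 0.28 in the foot, where it was too low to be called, and -0.95 ± 0.11 in the back, just short of the limit; with a pseudocount of 0.1 the back ratio was -1.02 and would be called lower. Both foot libraries lay below both back libraries, at -1.50 ± 0.24 between positive and -2.95 ± 0.17 between negative libraries.

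Jun (chr4:94715725-94718913), the founding Jun subunit of AP-1, had 4.88 FPKM (3.71 to 6.04) in the foot library labelled positive and 8.32 FPKM (7.20 to 9.41) in that labelled negative. In the back it had 29.1 FPKM (27.0 to 29.9) in the positive and 45.7 FPKM (44.3 to 47.8) in the negative library. The last value belongs to a longer locus, chr4:94696654-94718913, that joins Jun with Gm12703. Jun was not called between positive and negative libraries, with ratios of -0.48 ± 0.33 in the foot and of -0.87 ± 0.09 in the back. It was called lower in the foot than in the back under both labels, at -2.55 ± 0.30 between positive and -2.95 ± 0.18 between negative libraries, and it had the lowest measurable ratio of the members between the positive libraries.

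Junb (chr8:87500811-87502617), a Jun paralogue that restrains Jun in many settings, was listed at 0 (upper bound 0.256) in the foot library labelled positive and had 3.40 FPKM (2.40 to 4.41) in that labelled negative. It had 16.3 FPKM (15.0 to 17.7) in the back positive and 45.7 FPKM (43.1 to 48.3) in the back negative library. In the back it was called lower in the positive library, at -1.67 ± 0.14. Between the negative libraries its foot over back ratio was -3.99 ± 0.33, the lowest of any member in any comparison where neither value is listed at 0.

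Jund (chr8:73221638-73224515), the most constitutive Jun gene in most cells, was listed at 0 (upper bound 0.379) in the foot library labelled positive and had 6.73 FPKM (5.11 to 8.37) in that labelled negative. It had 17.1 FPKM (15.7 to 18.5) in the back positive and 12.6 FPKM (11.2 to 13.97) in the back negative library. It was the only Jun gene whose as-deposited level was higher in a positive library, but after scaling the back ratio was 0.19 ± 0.19 with overlapping bounds. Between the negative libraries it was lower in the foot, at -1.41 ± 0.33.

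The makeup of the Fos and Jun transcripts differed with the skin. The 6 genes summed to 16.8 FPKM and 61.3 FPKM in the foot libraries labelled Axin2-positive and Axin2-negative, against 105 FPKM and 222 FPKM in the back positive and negative libraries. The 3 Fos genes made up 71.0% and 69.9% of that sum in the foot libraries, against 40.6% and 53.1% in the back libraries, in the same order. The Jun genes made up 29.0% and 30.1% in the foot libraries, all of it Jun in the library labelled positive, where Junb and Jund enter as the listed 0, against 59.4% and 46.9% in the back libraries. Fos alone gave the largest share in each library, 51.0% and 66.1% in the foot and 30.4% and 44.8% in the back. Why Junb and Jund are listed at 0 is not stated in the files, so the shares of that library rest on those entries. These are shares of transcript per length and say nothing of protein or of dimers.

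**Figure D2:**
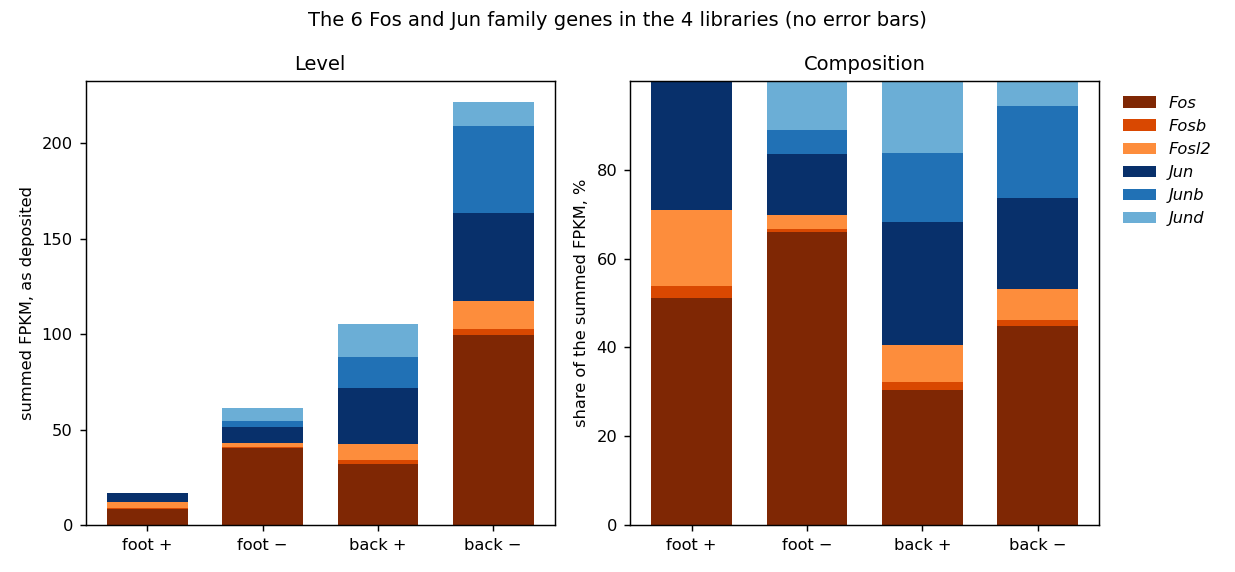
Summed FPKM as deposited (left axis, FPKM) and each gene's share of that sum (right axis, %) for Fos, Fosb, Fosl2, Jun, Junb and Jund in the 4 libraries, with 1 bar a library and no error bars. The Fos genes (orange and brown) fill 71.0% and 69.9% of the foot bars and 40.6% and 53.1% of the back bars; Junb and Jund are listed at 0 in the foot Axin2-positive library.

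Egr1, a zinc finger factor induced through serum response factor, was the only member whose level was highest in the foot library labelled negative. It had 6.88 FPKM (5.49 to 8.27) in the foot library labelled positive and 17.55 FPKM (16.0 to 19.2) in that labelled negative. It had 10.8 FPKM (10.04 to 11.6) in the back positive and 6.98 FPKM (6.17 to 7.79) in the back negative library. It was called lower in the foot library labelled positive, at -1.03 ± 0.28, just past the limit, while in the back the ratio was 0.35 ± 0.18. Egr1 was the only member with a higher value in the foot than in the back between negative libraries, at 0.61 ± 0.19; as deposited, without scaling, that ratio was 1.22 and would be called higher. Between the positive libraries the ratio was -0.78 ± 0.27.

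Atf3 (chr1:192994175-193007219), induced by many stresses, was listed at 0 with both bounds at 0 in the foot library labelled positive, and had 3.93 FPKM (2.81 to 5.07) in that labelled negative. It had 11.8 FPKM (10.7 to 12.9) in the back positive and 30.4 FPKM (28.6 to 32.3) in the back negative library. Its ratios were -1.53 ± 0.15 between positive and negative libraries in the back and -3.26 ± 0.33 between foot and back negative libraries, both called lower.

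Ier2 (chr8:87185230-87186751), a small nuclear protein induced by serum, had 14.9 FPKM (10.9 to 17.6) in the foot library labelled positive and 18.2 FPKM (16.0 to 20.5) in that labelled negative, where its locus starts earlier, at chr8:87176082. It had 20.4 FPKM (16.7 to 20.6) in the back positive and 33.5 FPKM in the back negative library, where the value lies above its own bounds (27.8 to 32.3). The foot ratio was -0.08 ± 0.36 with overlapping bounds, and the back ratio was -0.93 ± 0.18, short of the limit. It was called lower in the foot only between the negative libraries, at -1.49 ± 0.20, against -0.63 ± 0.35 between the positive ones.

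Dusp1 (chr17:26642535-26645464), an early gene that switches off the MAP kinases, had 8.78 FPKM (6.65 to 10.9) in the foot library labelled positive and 15.7 FPKM (13.7 to 17.7) in that labelled negative. It had 25.6 FPKM (24.3 to 26.9) in the back positive and 27.8 FPKM (26.0 to 29.6) in the back negative library. The ratios of positive over negative were -0.58 ± 0.36 in the foot and -0.35 ± 0.11 in the back, neither of them called. Those of foot over back were -1.65 ± 0.33 between positive and -1.42 ± 0.19 between negative libraries, both called lower.

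The first comparison asks how Axin2-positive differ from Axin2-negative dermal cells. In the foot, 6 of the 10 genes reached 5 FPKM in either library; 0 were called higher and 3 lower (Fos, Egr1 and, through a 0, Jund). Over all 6481 genes tested there, 10.6% were called higher and 11.2% lower. Leaving out genes listed at 0, a step chosen after the data were seen, left 2 lower of 5, against 9.88% higher and 10.2% lower of 6343 genes. The 7 members with a ratio, among them Fosb and Fosl2 that were under 5 FPKM, had a median of -0.48, between -1.90 and 0.50. The 5 tested members not listed at 0 had a median of -0.58, and all tested genes had a median of -0.04. With half-widths of 0.36 at the median, 4 members lay below 0 by more than their half-width and 1, Fosl2, above.

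In the back, 9 of the 10 were tested; 0 were called higher and 3 lower (Fos, Junb and Atf3), against 4.08% higher and 3.59% lower of 5297 genes. The median of the 10 ratios was -0.90, and that of the 9 tested members -0.93, against -0.01 over all tested genes. The ratios of Fosl2 and Ier2 stood at -0.95 and -0.93, just outside the limit, and 8 of the 10 genes lay below 0 by more than their half-width. Egr1 lay above by more than its half-width, and Jund did not clear it. Without scaling the back median was -0.66, and the same 3 genes were called.

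**Figure D3:**
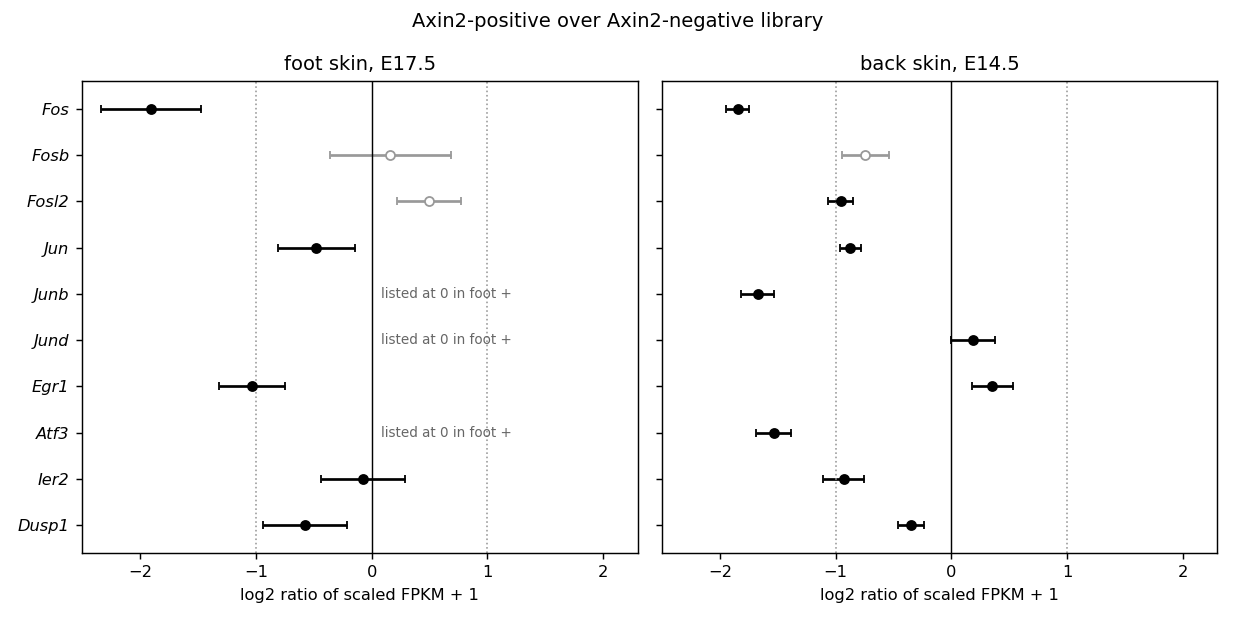
Log2 ratio of scaled FPKM + 1, Axin2-positive over Axin2-negative library, for the 10 genes in foot skin (left) and back skin (right). Points are ratios and bars the half-widths from the authors' bounds. Open grey points are genes under 5 FPKM in both libraries, and dotted lines mark a 2-fold difference. Fos lies near -1.9 in both skins. Egr1, Fosl2 and Fosb lie on opposite sides of 0 in the 2 skins, Fosb within its half-width of 0 in the foot.

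Other cell types' markers moved with the sort. The 6 mast cell markers summed to 3.15 and 267 FPKM in the foot libraries labelled Axin2-positive and Axin2-negative, and to 25.3 and 87.7 FPKM in the back positive and negative libraries, with 2, 1, 1 and 1 of the 6 at 0 in that order. The 8 leukocyte markers summed to 0.788 and 2.48 FPKM in the foot, with 6 at 0 in both libraries, and to 3.48 and 17.1 FPKM in the back, with 1 and 0 at 0. The 5 keratinocyte markers measured summed to 7.56 and 0 FPKM in the foot and 29.7 and 10.7 FPKM in the back, with 3, 5, 0 and 0 at 0. Krt10 alone had 7.38 and 0 FPKM in the foot and 23.5 and 6.63 FPKM in the back. The other 3 of the 8 listed, Krt5, Krt14 and Krt15, lay in loci joined with other genes and were left out. A sum of 0 therefore does not show that keratinocyte RNA was absent. The joined alpha globin locus had 216 and 336 FPKM in the foot positive and negative libraries, and 1015 and 8249 FPKM in the back positive and negative libraries. Immediate early genes are known to be expressed in leukocytes, mast cells and keratinocytes too; the part of these cells in the values of the 10 genes was not tested. Of the remaining lists, 7 endothelial markers summed to between 0.461 and 6.58 FPKM, 8 Schwann and melanocyte markers to between 0.793 and 2.85, 5 muscle markers to between 0.768 and 4.91, and 6 pericyte markers to between 17.2 and 22.0. Single pericyte markers were called although their sum varied little. Abcc9 was called higher in the foot sort (1.65 ± 0.36) and Kcnj8 in the back sort (1.35 ± 0.24). In the foot against the back, Rgs5 (2.60 ± 0.27) and Abcc9 (1.23 ± 0.31) were higher and Kcnj8 lower (-1.03 ± 0.41) between positive libraries. Between negative libraries Pdgfrb was lower (-1.33 ± 0.21).

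The second comparison asks how foot dermal cells differ from back dermal cells of the same label. Between the positive libraries 9 members were tested; 0 were called higher and 7 lower, namely Fos, Fosl2, Jun, Dusp1 and, through a 0 in the foot, Junb, Jund and Atf3. Of 6284 genes, 17% were called higher and 13.9% lower. Without genes listed at 0 the count was 4 lower of 6, against 16.1% higher and 13.3% lower of 6142 genes. All 7 ratios that could be computed lay below 0 by more than their half-width, with a median of -1.50. The 6 tested members not listed at 0 had a median of -1.57, against 0.10 over all tested genes.

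Between the negative libraries, where no member is listed at 0, 0 of 9 tested members were called higher and 8 lower, all but Egr1. Of 6237 genes, 16.9% were called higher and 11.2% lower. The median of the 10 ratios was -1.95 and their range -3.99 to 0.61. The 9 tested members had a median of -1.93, against 0.14 over all tested genes. Scaling matters most here, since it moved the median of all genes by 0.61 on the log2 scale. As deposited, 5 members were called lower and 1, Egr1, higher; Jund, Ier2 and Dusp1 then stood at -0.81, -0.85 and -0.78, no longer called.

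**Figure D4:**
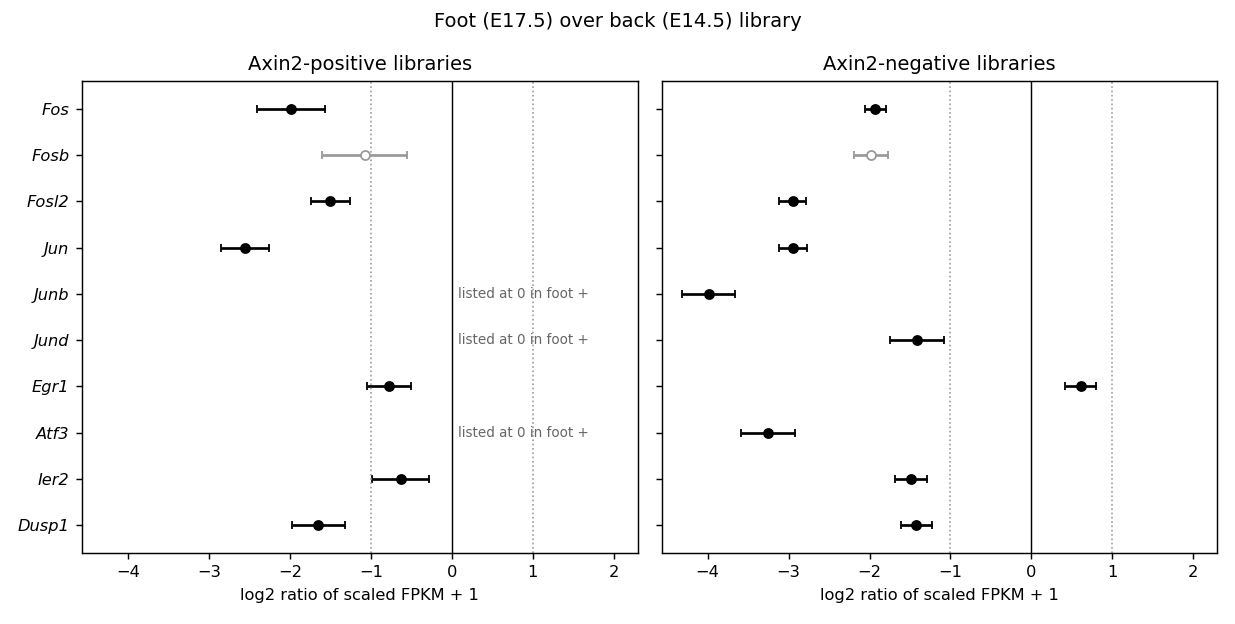
Log2 ratio of scaled FPKM + 1, foot (E17.5) over back (E14.5) library, for the 10 genes between Axin2-positive (left) and Axin2-negative (right) libraries; points, bars and lines as in the plot of the sort ratios. Every point lies left of 0 except Egr1 between the negative libraries, and Junb there has the lowest ratio plotted, -3.99. Genes listed at 0 have no point.

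Whether the sort ratio differed between the skins was described by the foot minus the back log2 ratio. Of 9 members tested 1 was called higher, Fosl2 at 1.45 ± 0.30, and 2 lower, Egr1 at -1.39 ± 0.33 and, through a 0, Jund. Over 6928 genes 12.9% were called higher and 14.3% lower. Ier2 had 0.85 ± 0.40, Jun 0.39 ± 0.34 and Dusp1 -0.23 ± 0.38. As deposited, these 3 differences were 0.42, -0.033 and -0.66, so that of Jun turned sign, while Fosl2 had 1.097 and Egr1 -1.80. With 1 library a group the difference was not tested. Across these 5 comparisons the share of called genes that were higher depended on scaling: it was 48.6%, 53.2%, 55.0%, 60.0% and 47.4% with scaling, and 35.3%, 69.8%, 66.7%, 89.0% and 24.4% as deposited, for the foot sort, the back sort, the positive and the negative foot over back pairs and the difference.

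Early genes outside the 10 were also mostly lower in the foot where they were called between the skins. Of 14 other immediate early transcription factors, 9 were tested between the positive libraries and 9 between the negative ones; 6 and 8 were called lower in the foot, where 13.9% and 11.2% of all tested genes were, and 0 were called higher in either. Nr4a1, an orphan nuclear receptor, had 4.33 and 5.61 FPKM in the foot libraries labelled Axin2-positive and Axin2-negative, against 36.3 and 82.2 FPKM in the back positive and negative libraries. Its foot over back ratios were -3.00 ± 0.35 and -4.26 ± 0.34 for the positive and negative libraries. Klf2, a Kruppel-like factor, had -4.20 ± 0.46 and -4.09 ± 0.32, and Klf6, another of that family, -2.80 ± 0.19 and -3.09 ± 0.15. Klf4, also of that family, had -2.22 ± 0.60 and -1.35 ± 0.32.

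In the back sort 2 of 9 of these factors were called lower, Nr4a1 at -1.40 ± 0.09 and Csrnp1 at -1.26 ± 0.21. Cebpb alone was called higher, at 11.3 FPKM in the positive library and listed at 0 in the negative one. Of all tested genes 3.59% were lower and 4.08% higher there. In the foot 0 of 5 were called lower and 1 higher, against 11.2% and 10.6% of all tested genes. The 1 was again Cebpb, at 7.16 FPKM in the library labelled positive and listed at 0 in that labelled negative.

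Of 26 early genes that are not transcription factors, 25 were measured. Between the skins 10 of 17 were lower and 2 higher for the positive libraries, and 8 of 16 lower and 2 higher for the negative ones, against the same 13.9% and 11.2% lower and 17% and 16.9% higher of all tested genes. Cyr61, a secreted matricellular protein, had 7.31 and 20.6 FPKM in the foot libraries labelled Axin2-positive and Axin2-negative, against 122 and 174 FPKM in the back positive and negative libraries, with foot over back ratios of -4.09 ± 0.36 and -3.67 ± 0.17. Ctgf, its close relative, ran the other way, with 12.3 and 12.5 FPKM in the foot against 1.14 and 0.565 FPKM in the back, and ratios of 2.48 ± 0.50 and 2.67 ± 0.35.

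In the sort, 4 of 15 of these genes were called lower and 1 higher in the foot, where 11.2% and 10.6% of all tested genes were. In the back 5 of 15 were called lower and 2 higher, against 3.59% and 4.08% of all tested genes. Zfp36, which destabilises early-gene messages, was lower in both skins, with ratios of -1.70 ± 0.53 in the foot and of -1.05 ± 0.20 in the back. Gadd45g, a growth arrest gene, was lower in the foot at -2.22 ± 0.74, and Gadd45b in the back at -1.31 ± 0.13. Btg1, an antiproliferative gene, and Rhob, a small GTPase, were higher in the back positive library, at 1.97 ± 0.15 and 1.82 ± 0.17.

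Heat shock genes, which stress induces alongside early genes, were also mostly lower in the foot. Of 11 heat shock units tested, 7 were lower and 1 higher (Dnaja1, listed at 0 in the back positive library) in the foot between positive libraries, and 7 lower and 0 higher between negative ones, again against 13.9% and 11.2% lower of all tested genes. The inducible Hspa1a/Hspa1b pair, near-identical copies counted together, had 2.03 and 2.12 FPKM in the foot libraries labelled Axin2-positive and Axin2-negative, against 97.7 and 213 FPKM in the back positive and negative libraries. Its foot over back ratios were -5.20 ± 0.53 and -6.65 ± 0.36. In the sort it was lower in the back positive library at -1.36 ± 0.05. There 3 of 11 units were lower, 1 of them Dnaja1 through its 0, and 0 higher, against 3.59% and 4.08% of all tested genes. In the foot 0 of 8 were called either way, against 11.2% lower and 10.6% higher of all tested genes. The part of tissue handling in the values of the 10 genes was not tested.

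Of the genes upstream or downstream of AP-1 only a small number reached 5 FPKM, so little can be read from their counts. Over all tested genes 10.6% were higher and 11.2% lower in the foot sort, and 4.08% and 3.59% in the back sort. In the foot against the back, 17% were higher and 13.9% lower between positive libraries, and 16.9% and 11.2% between negative ones. Of 12 other AP-1 dimer genes 11 were measured and up to 3 tested per comparison; Atf7 alone was called, higher in the foot at 1.33 ± 0.79 and 1.01 ± 1.05 for the positive and negative libraries. Among 9 ERK feedback genes 4 were tested, with 0 called in the foot sort and 2 higher in the back sort: Dusp6, an ERK phosphatase, at 1.11 ± 0.21, and Spry2, an inhibitor of receptor signalling, through a 0 in the negative library. Spry2 was also the 1 gene of this list called between the skins, lower in the foot at -1.67 ± 0.33 between positive libraries and, through that 0, higher between negative ones. Of 18 upstream kinases and promoter factors 15 were measured. In the sort, 1 of 8 was lower in the foot and 1 of 9 higher in the back. In the foot against the back, 3 of 9 were lower between positive libraries, 1 of them through a 0, and 2 of 8 between negative ones. Mapk9, which encodes the Jun kinase JNK2, was lower in the foot library labelled positive at -1.52 ± 0.51, and Map2k4, a kinase upstream of it, was higher in the back positive library at 1.06 ± 0.22. Among 13 reported AP-1 targets, 1 of 4 was higher in the foot sort and 0 of 5 were called in the back sort, and between the skins 2 of 5 were higher and 1 of 5 lower under either label. Cd44, a hyaluronan receptor, was higher in the foot at 1.56 ± 0.19 and 1.31 ± 0.16, and Plaur, the urokinase receptor, was lower at -1.95 ± 0.53 and -1.34 ± 0.37, for the positive and negative libraries.

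**Figure D5:**
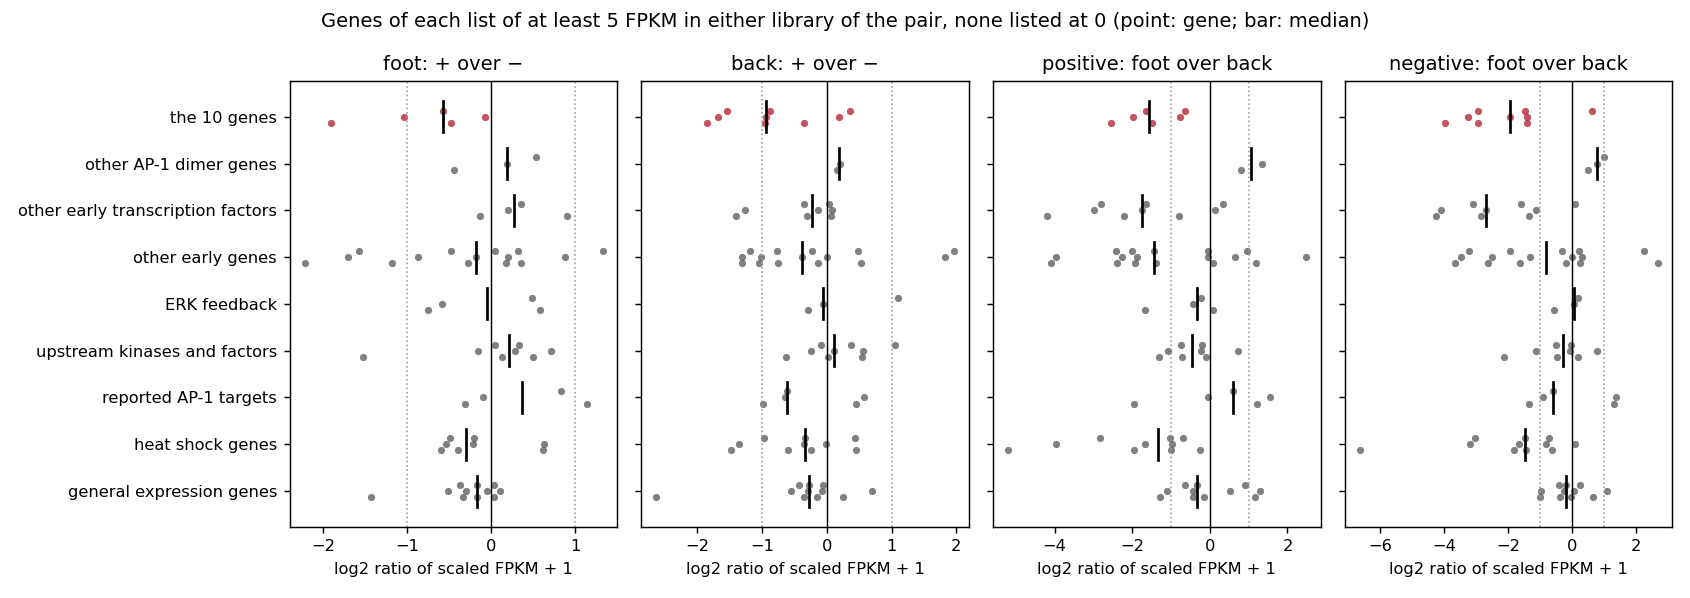
Log2 ratio of scaled FPKM + 1 (horizontal axis) for the genes of each list with at least 5 FPKM in either library and none listed at 0, in the 4 comparisons; points are genes, bars the list medians, dotted lines a 2-fold difference, and + and − stand for Axin2-positive and Axin2-negative. In the foot over back panels the 10 genes (red), the other early transcription factors and the heat shock genes lie mostly left of 0. So do the other early genes and the upstream kinases and factors. Of the general expression genes 7 of 11 lie left of 0 in each of these panels, with medians of -0.34 (positive) and -0.19 (negative). The few other AP-1 dimer genes lie right of 0.

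Genes whose pattern was most like that of the 10 were sought among 6621 candidates, by the root-mean-square distance over the 4 libraries from the mean centred log2 profile of the members. The nearest were the joined Pdxp/Sh3bp1 locus at a distance of 0.048, Ckb at 0.19, Flnc at 0.20, Mad2l1 at 0.22 and Cpne5 at 0.24. The members themselves lay between 0.35 (Jun) and 1.12 (Egr1) from their own mean, with Junb next to Egr1 at 1.06. Junb, Jund and Atf3 entered that mean at their listed 0 in the foot library labelled positive. Candidates listed at 0 in any library were left out. The mean, the distances from it and the genes nearest to it therefore rest in part on those entries. Nearest to Fos alone were Zfp36 at 0.29, Ckb at 0.36 and Mrpl2 at 0.40. With only 4 libraries many genes can come close to any profile, and nothing about shared function follows from it.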

How the data were processed

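Messenger RNA of sorted dermal cells was measured in 4 libraries, 1 a group, made with an Illumina TruSeq mRNA kit per the labels. Per the submitters' processing notes, the authors used TopHat, Cufflinks and the mm9 build; the sources used here do not give versions, settings or the gene annotation. The authors deposited FPKM per gene or assembled locus with a lower and an upper bound, whose confidence level is not stated, and a status, per the file headers. Read counts are unknown, so the depth is judged by the width of the bounds.

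Entries that share a symbol were added up, and loci joining several symbols in any library were kept as 1 unit, which gave 33059 units (975 joined). Of 20495 protein-coding units, by symbol from GENCODE vM21 and RefSeq GRCm38.p6, 20378 had status OK in all libraries and were compared. In the foot table labelled positive, 22 symbols altered to dates were left out. FPKM was divided by median-ratio factors of 1.09, 1.26, 0.936 and 0.791 (foot positive, foot negative, back positive, back negative) over 7590 coding genes of at least 1 FPKM in all 4, and 1 was added before the log2, which understates changes of low genes. Printed FPKM are as deposited. Python 3.11.15, numpy 2.4.6, pandas 2.3.3 and matplotlib 3.10.9 were used, and the scaling and calls were tested on simulated data.

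The members, the lists and the rule for named genes were chosen with earlier results of these data known. Named were the 10 members, Axin2, the most changed called genes or the highest gene of each list (up to 4), and the genes nearest in profile. Alternatives were no scaling, upper-quartile scaling, a pseudocount of 0.1, other limits on low values, the largest entry per symbol, and leaving out genes listed at 0 or the joined Jun locus.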

Additional observations from a re-analysis of the deposited data

Results flagged for a closer look

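Fosl2 differed in direction between the skins: its positive over negative log2 ratio was 0.50 ± 0.28 in the foot and -0.95 ± 0.11 in the back, a foot minus back difference of 1.45. Both foot values were under 3 FPKM. Egr1 differed the other way, with ratios of -1.03 ± 0.28 in the foot and of 0.35 ± 0.18 in the back, a difference of -1.39. With 1 library a group, neither difference was tested.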

How the results depend on the processing

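No log2 ratio of a member within the 4 comparisons changed sign under the alternatives run, but the foot minus back difference of Jun did, without scaling. Without scaling, the median over members was -0.66 in the back sort, -1.46 between the negative foot and back libraries and -0.033, against 0.39 with scaling, for the foot minus back difference; between the negative libraries 5 members were lower and 1 higher. With a pseudocount of 0.1 the median between the negative libraries was -2.53, 4 members were lower in the difference, and Fosl2 was also called lower in the back sort, at -1.02. With a limit of 1 FPKM, or none, 5 members were lower in the foot sort, since Junb and Atf3, listed at 0, entered. Leaving out genes listed at 0, chosen after seeing the data, gave 4 lower between the positive foot and back libraries and 1 lower in the difference. Upper-quartile scaling and the largest entry per symbol moved none of the 34 member ratios beyond their half-width. The pseudocount of 0.1 moved 6, and no scaling moved 19. No paired analysis was possible because each group holds 1 library, and for the same reason no library could be left out. The bounds were widest in the foot library labelled positive, which limits every ratio that uses it.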
